A study of Mus musculus with 24 samples.

Results

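The clustered protocadherin genes are the members of the alpha, beta and gamma gene clusters of mouse chromosome 18, chosen here by their symbols alone: every gene whose name consists of Pcdha, Pcdhb or Pcdhg followed by its number or by its A, B or C type. They numbered 59 of the 24079 genes in the count table, 15 of them alpha, 22 beta and 22 gamma. RNA-seq had been performed on 2 brain regions, the dorsal striatum (DS) and, below it, the nucleus accumbens (Acb), of rpS6P-/- mice and their wild-type littermates. From each lysate, RNA was taken before fractionation (the whole lysate, below "total") and from the heavy polysomal fractions of a sucrose gradient, which hold mRNAs carrying many ribosomes (below "heavy"). The 24 libraries formed 8 groups of 3 replicates, 1 group for each combination of region, genotype and fraction.

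rpS6P-/- mice are knockin mice in which the serines of ribosomal protein S6 that are normally phosphorylated are replaced by alanine. They came from crosses of heterozygous mice on a mixed C57Bl/6/Sv129/ICR background, so that wild-type littermates shared that background, and the mutation was present in every cell of the body rather than in 1 cell type. Neither genotype received a drug treatment in these libraries, and the age of the mice was not given. Each replicate pooled tissue from several mice, so the p-values measure the spread between pools.

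Clustered protocadherins are cell adhesion proteins of neurons and glia that bind the same isoform on a facing cell, and the combination of isoforms on 1 neuron helps its dendrites and axons to tell self from non-self. Each variable exon of the alpha and gamma clusters has its own promoter and encodes the extracellular, transmembrane and first intracellular part of 1 isoform, which is spliced to constant exons shared by the whole cluster. Beta genes consist of a single exon and have no constant part. Most isoforms are chosen by chance in each neuron through promoter methylation, the insulator protein Ctcf and cohesin, whereas the C-type isoforms at the end of the alpha and gamma clusters are used more evenly across neurons.

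The 3 clusters lay next to each other on chromosome 18 of the GRCm38.p6 assembly. The alpha cluster ran from base 36930285 to 37188897 (258613 bp), the beta cluster from 37264998 to 37521419 (256422 bp) and the gamma cluster from 37661775 to 37841873 (180099 bp). Because the authors counted a read only when it fell on a single gene, reads on the shared constant exons were not assigned to any member. In the GENCODE annotation a median of 2860 exonic bases of an alpha gene and 2119 of a gamma gene were shared with other genes, beside a median of 2489 and 2607.5 bases of their own. A beta gene had a median of 3714 bases of its own and 0 shared. The counts of alpha and gamma members therefore describe their variable exons.

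**Figure D1:**
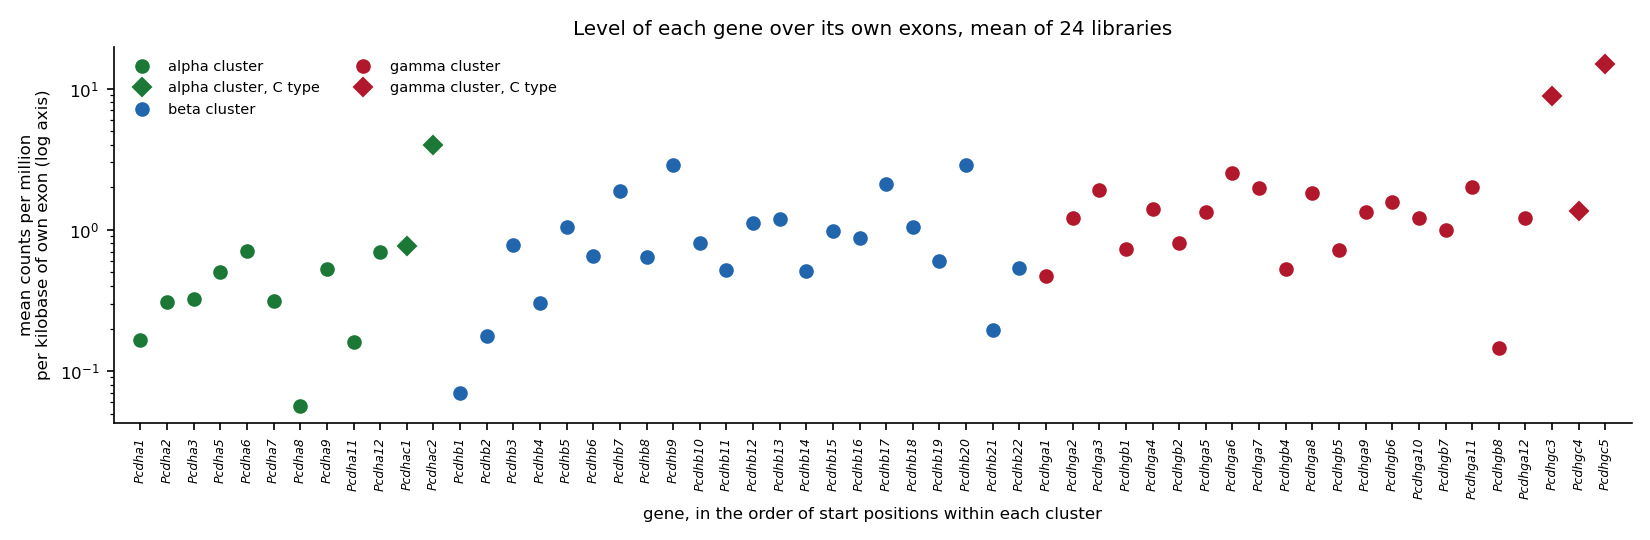
Mean level of each clustered protocadherin gene over the 24 libraries, as CPM per kilobase of exon that belongs to that gene alone (log axis), in the order of start positions within the alpha, beta and gamma clusters. Diamonds mark the 5 C-type isoforms; Pcdhgc5 stood highest at 14.9 and Pcdha8 lowest at 0.0570, and genes without reads or without annotated exons are not drawn.

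Levels below are CPM, assigned reads scaled to a common library size after TMM normalization, and members are ranked by level only per kilobase of own exon (CPM per kb). Per kilobase, the C-type isoforms Pcdhgc5 (14.9 CPM per kb), Pcdhgc3 (8.88) and Pcdhac2 (3.99) were the highest of the 56 members with reads and annotated exons. The other C types were lower, with 1.35 CPM per kb for Pcdhgc4 and 0.764 for Pcdhac1. Among the isoforms that neurons choose by chance, the median level was 0.319 CPM per kb over 10 alpha genes, 0.792 over 22 beta genes, 1.37 over 12 genes of the gamma A type and 0.725 over 7 of the gamma B type. By these lengths, the beta genes with the highest levels were Pcdhb9 (2.87) and Pcdhb20 (2.85). The highest non-C genes were Pcdha6 (0.704) for alpha and Pcdhga6 (2.51) for gamma. Own exon lengths came from GENCODE, while the authors counted reads on UCSC gene models. For some beta genes the GENCODE exons were longer than the RefSeq span. Pcdhb17, for example, had 4660 own bases but ran from base 37485021 to 37488290. Beta values per kilobase, and their order, ratios and correlations, depend on that choice.

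The lowest members with reads were Pcdha8 (0.0570 CPM per kb), Pcdhb1 (0.0696) and Pcdhgb8 (0.147), the last of which is annotated as a transcribed pseudogene. Pcdha4 and the entry Pcdha4-g had 0 reads in all 24 libraries. Pcdha4-g runs from base 36952648 to 37841873 and so covers all of Pcdha4 (36952689 to 37187657). A read on an exon of both was assigned to neither, so these values of 0 do not show that Pcdha4 mRNA was absent. The highest level was 70.1 times the lowest within the alpha cluster, 41.2 times within the beta cluster and 101.7 times within the gamma cluster. Position along a cluster and level ran together only weakly once the C types were set aside, with Spearman's rho of 0.16 over 10 alpha, 0.24 over 22 beta and 0.01 over 19 gamma genes; these are correlations across genes of the same libraries, given as a description.

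The libraries held 9280589 to 34703044 assigned reads, of which 1045 to 9031 fell on clustered protocadherins. The spread between replicates was wide: the biological coefficient of variation had a median of 0.557 over the 57 members with enough reads, beside 0.252 over all 17365 genes tested. By cluster it was 0.982 for alpha, 0.478 for beta and 0.502 for gamma, and the trend fitted to genes of the same abundance gave a median of 0.518 for the members. In 30 of the 472 combinations of member and group, 1 library had 0 reads while another of the same group had at least 20. The wild-type DS heavy replicate 1 stood apart, with 19 members at 0 reads (2 to 12 in the other 23 libraries) and 1045 member reads out of 11109431, and the comparisons that use it and call members, or give medians of members, are also given without it. Markers of medium spiny neurons, the main neurons of both regions (11 of the 12 listed genes in the table), summed to 4669 to 7739 CPM in all 24 libraries. Rps6, the mutated gene, had mean levels of 317 to 434 CPM in the 4 combinations of region and fraction, which says nothing of the point mutations themselves.

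The first question was how these mRNAs divided between heavy polysomal fractions and whole lysates. In each region, 11 or more of the 22 gamma mRNAs were lower in the heavy fractions. Of the beta mRNAs 4 were lower in each region, and of the alpha mRNAs 0 in the Acb and 1 in the DS. Over all genes, 15% in the Acb and 17.6% in the DS were called lower, so the beta and alpha counts were near or below that share.

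In the Acb, the summed level of the gamma cluster was 78.2 to 126 CPM in the 6 heavy libraries (median 116) and 121 to 221 CPM in the 6 total libraries (median 200). The summed beta level was 68.6 to 92.3 CPM (median 82.9) in heavy and 91.9 to 127 CPM (median 121) in total. The summed alpha level was 21.3 to 34.4 CPM (median 24.4) in heavy and 12.8 to 35.1 CPM (median 24.2) in total. The heavy and total ranges overlapped fully for alpha, at their ends for beta and gamma, and the lowest total gamma libraries were replicate 3 of both genotypes.

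In the DS, the gamma cluster summed to 35.5 to 100.3 CPM in heavy (median 63.5) and 121 to 217 CPM in total (median 154). The beta cluster summed to 41.6 to 82.0 CPM in heavy (median 56.7) and 66.4 to 106 CPM in total (median 92.8). The alpha cluster summed to 9.85 to 25.6 CPM in heavy (median 17.0) and 21.4 to 38.6 CPM in total (median 31.4). Only the gamma ranges did not overlap between the fractions.

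Within each lysate, the ratio of heavy to total was below 1 in 6 of 6 lysates of each region for beta and for gamma. For gamma it ran from 0.359 to 0.949 in the Acb and from 0.163 to 0.560 in the DS, and for beta from 0.559 to 0.890 and from 0.493 to 0.775. For alpha it ran from 0.733 to 1.82 in the Acb, with 2 of 6 lysates below 1, and from 0.390 to 0.848 in the DS, with 6 of 6 below 1. Gamma members held 56.8% ± 2.73 (SD, n = 12) of all member reads in total libraries and 47.6% ± 5.02 in heavy libraries.

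**Figure D2:**
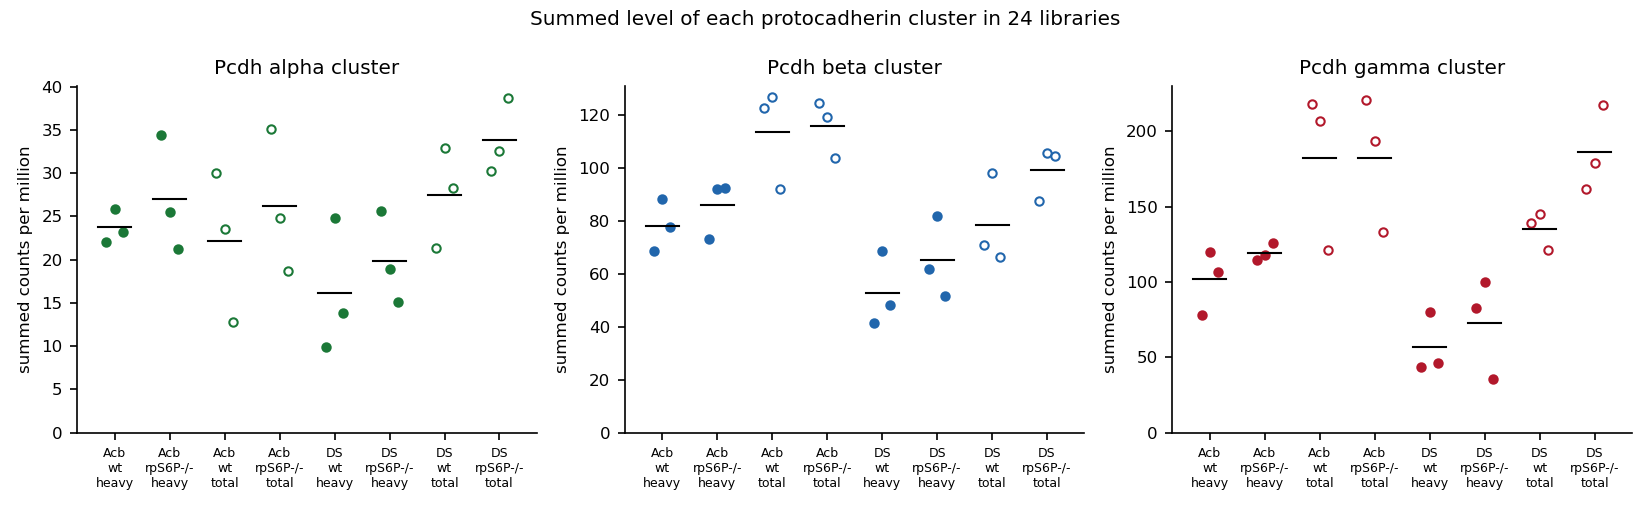
Summed level in CPM of the alpha, beta and gamma clusters in each of the 24 libraries, grouped by region, genotype and fraction (filled points heavy, open points total, line the group mean, n = 3). Gamma sums of the DS heavy libraries (35.5 to 100.3 CPM) lay below all DS total libraries (121 to 217 CPM).

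Gene by gene, edgeR's quasi-likelihood test on heavy against total libraries of both genotypes called a gene at a Benjamini-Hochberg adjusted p under 0.05. In the Acb, 16 of 57 tested members were lower in heavy and 0 higher, where 15% of all genes were called lower and 16.6% higher. These were 0 of 13 alpha, 4 of 22 beta and 12 of 22 gamma members. In the DS, 16 of 56 were lower and 0 higher (1 of 13 alpha, 4 of 21 beta, 11 of 22 gamma), where 17.6% of all genes were called lower and 19.6% higher. The alpha and beta counts were thus near or below the share over all genes, and the gamma counts above it.

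The median log2 difference, heavy minus total, was -0.23 for alpha, -0.55 for beta and -1.12 for gamma in the Acb, beside 0.06 over all genes tested. In the DS it was -1.48, -0.73 and -1.72, beside 0.03. The difference was below 0 for 50 of 57 members in the Acb and 53 of 56 in the DS, and in both regions for 46 of 56 members. Without the wild-type DS heavy replicate 1, 17 members were lower in the DS heavy fractions (1 alpha, 3 beta, 13 gamma), with medians of -1.35, -0.63 and -1.57. DESeq2 called 19 members in the Acb and 18 in the DS. Over all genes, in either direction, it called 5503 of 16687 in the Acb and 6293 of 16544 in the DS.

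**Figure D3:**
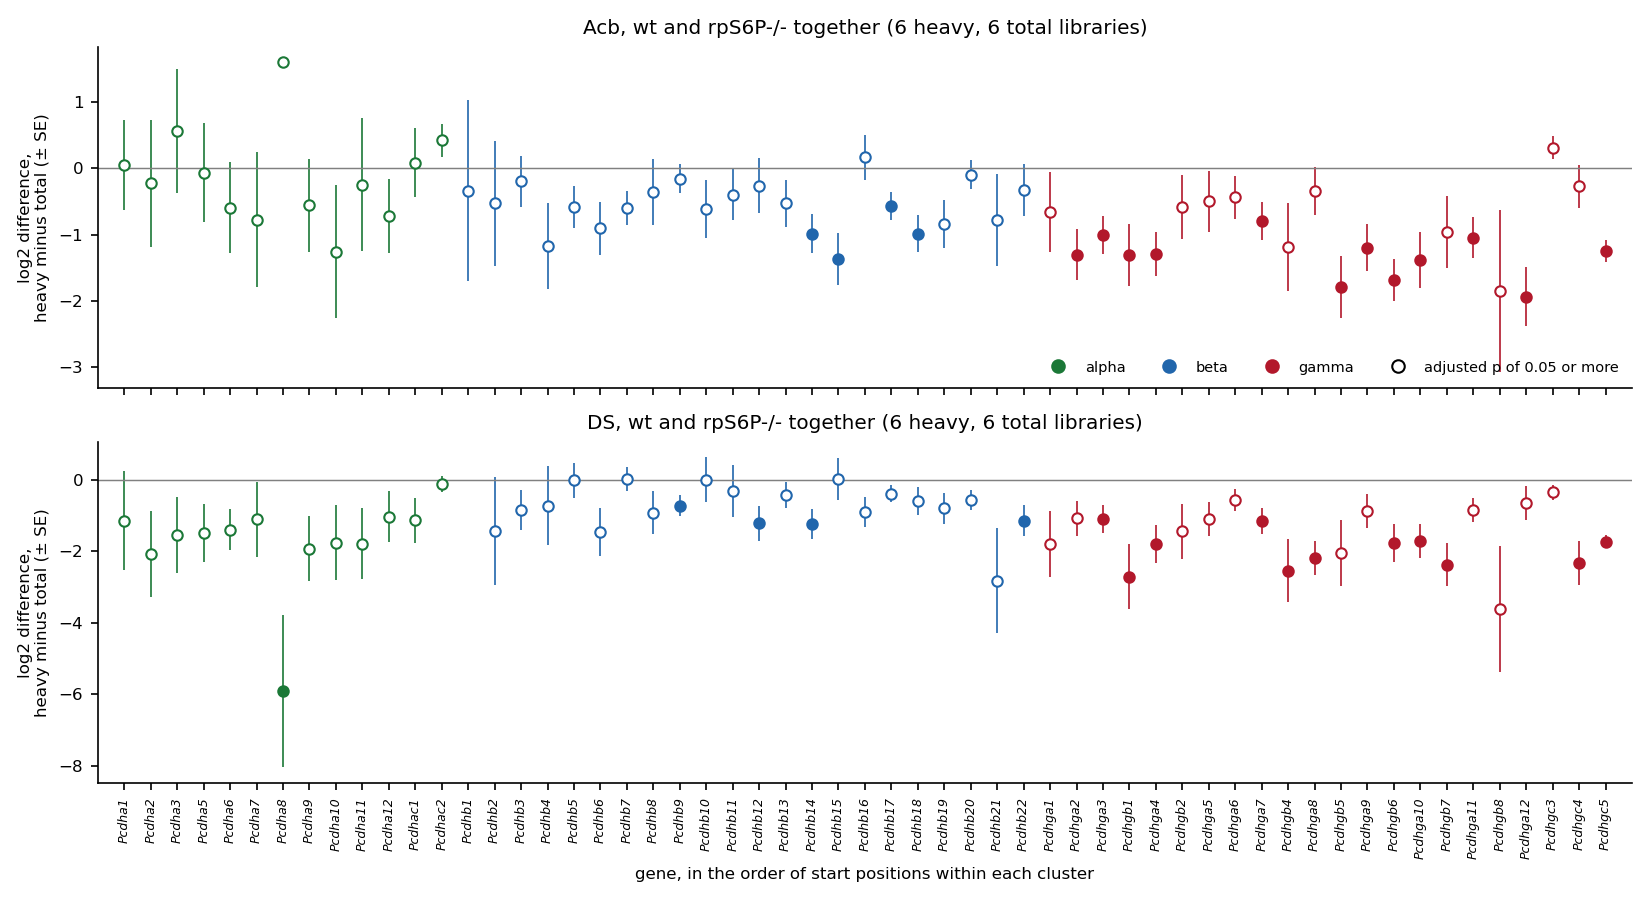
Log2 difference, heavy minus total, of each tested member with its standard error, in the Acb (top, 57 genes) and the DS (bottom, 56 genes), in genomic order within each cluster. Filled points passed an adjusted p of 0.05, which 12 gamma members did in the Acb and 11 in the DS; the error of Pcdha8 in the Acb is too large to draw.

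Pcdhgc5, the C-type gamma isoform that lies last in the cluster, showed the clearest difference. Its level in the Acb was 17.5 to 27.6 CPM in heavy (median 23.3) and 33.1 to 68.0 CPM in total (median 60.8), and the groups did not overlap. In the DS it was 9.03 to 27.5 CPM in heavy (median 18.9) and 39.3 to 84.8 CPM in total (median 57.2), again without overlap. Heavy was lower by a log2 difference of -1.25 ± 0.163 (SE, n = 6 against 6; edgeR adjusted p = 8.76e-08) in the Acb and -1.73 ± 0.179 (edgeR adjusted p = 1.29e-11) in the DS.

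Pcdhgc3, another C type of the gamma cluster, did not pass the test. Pcdhgc3 was at 27.03 to 41.0 CPM in Acb heavy (median 34.1) and 12.996 to 38.4 CPM in Acb total (median 27.8), a log2 difference of 0.31 ± 0.174 (edgeR adjusted p = 0.191). In the DS it was at 7.46 to 23.0 CPM in heavy (median 11.6) and 13.5 to 30.2 CPM in total (median 14.1), a difference of -0.35 ± 0.219 (edgeR adjusted p = 0.224). Heavy and total libraries overlapped in both regions.

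The ratio of Pcdhgc3 to Pcdhgc5 reads, looked at after their values were seen and given without a test, was 1.09 to 1.89 in Acb heavy, 0.393 to 0.674 in Acb total, 0.537 to 0.973 in DS heavy and 0.160 to 0.360 in DS total. In each region the heavy and total ranges of the ratio did not overlap, and heavy was higher.

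The third gamma C type, Pcdhgc4, was lower in heavy in the DS, with 0 to 2.32 CPM (median 0.644) in heavy against 0.826 to 6.73 CPM (median 5.86) in total (log2 difference -2.32 ± 0.608, edgeR adjusted p = 0.00158). One total library, the wild-type DS replicate 2, lay inside the heavy range. In the Acb it stood at 2.51 to 7.37 CPM in heavy and 2.38 to 7.64 CPM in total (difference -0.27 ± 0.324, edgeR adjusted p = 0.576).

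Of the C types of the alpha cluster, Pcdhac2 had 10.4 to 21.2 CPM in Acb heavy and 2.89 to 16.9 CPM in Acb total (difference 0.42 ± 0.253, edgeR adjusted p = 0.219). With the lysate as a replicate block the same comparison gave 0.54 (edgeR adjusted p = 0.0394), which made it the 1 member called higher in heavy. In the DS its levels were 7.48 to 16.9 CPM in heavy and 8.32 to 13.6 CPM in total (difference -0.11 ± 0.219, edgeR adjusted p = 0.750). Pcdhac1 passed in neither region (0.09 and -1.13).

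**Figure D4:**
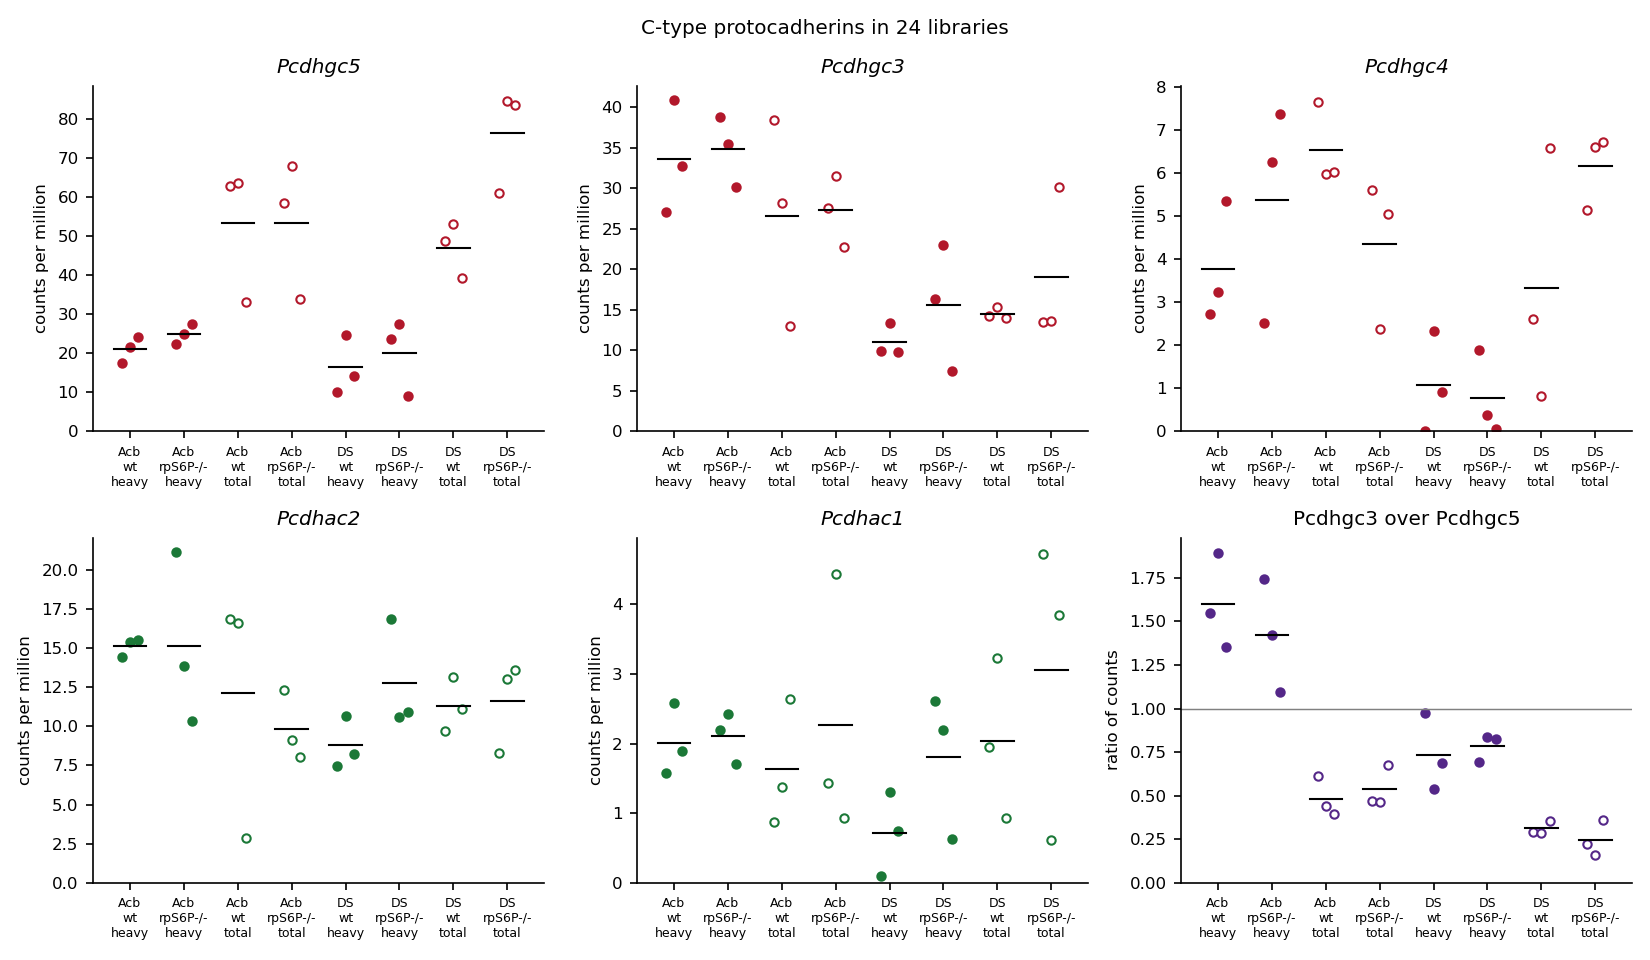
Level in CPM of the 5 C-type isoforms, and the ratio of Pcdhgc3 to Pcdhgc5, in each of the 24 libraries by region, genotype and fraction (filled points heavy, open points total). Pcdhgc5 in heavy libraries (9.03 to 27.6 CPM) lay below its total libraries (33.1 to 84.8 CPM), and the ratio was 0.537 to 1.89 in heavy against 0.160 to 0.674 in total.

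Among the gamma isoforms chosen by chance, all 19 tested members of the A and B types had differences below 0 in each region, and 11 in the Acb and 9 in the DS passed. Pcdhga12 was at 0.505 to 2.69 CPM in Acb heavy (median 1.34) and 1.55 to 12.2 CPM in Acb total (median 5.55), a log2 difference of -1.94 ± 0.442 (edgeR adjusted p = 0.000596). Pcdhgb6 was at 1.52 to 3.52 CPM in Acb heavy (median 2.56) and 3.01 to 11.8 CPM in Acb total (median 8.48), a difference of -1.69 ± 0.316 (edgeR adjusted p = 4.33e-05). The heavy and total ranges met through the total replicates 3, of both genotypes for Pcdhga12 and of wild-type mice for Pcdhgb6.

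In the DS, Pcdhga8 was at 0.0899 to 5.33 CPM in heavy (median 1.10) and 3.53 to 8.86 CPM in total (median 7.75), a log2 difference of -2.19 ± 0.475 (edgeR adjusted p = 0.000141). Of its 6 heavy libraries, only rpS6P-/- replicate 1 reached the total range. Pcdhga6, the highest non-C gamma gene per kilobase, did not pass in either region (-0.44 ± 0.326 and -0.55 ± 0.304). The median difference of the B type was -1.31 in the Acb and -2.37 in the DS over 7 genes, and that of the A type -1.03 and -1.10 over 12 genes.

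Of the beta genes, Pcdhb17 was lower in Acb heavy, at 6.16 to 10.7 CPM (median 8.83) against 10.5 to 15.6 CPM in total (median 12.2), a difference of -0.57 ± 0.205 (edgeR adjusted p = 0.0303). Pcdhb9 was lower in DS heavy, at 2.01 to 8.42 CPM (median 5.79) against 5.15 to 11.6 CPM in total (median 8.99), a difference of -0.73 ± 0.292 (edgeR adjusted p = 0.0445). The groups overlapped in both cases, and neither gene passed in the other region (Pcdhb17 -0.38, Pcdhb9 -0.16). Leaving out 1 library at a time lost the call of Pcdhb17 in 6 of 12 fits and that of Pcdhb9 in 9 of 12, among them the fit without the wild-type DS heavy replicate 1 (-0.59, edgeR adjusted p = 0.0974). Pcdhb20 passed in neither region, but with the lysate as a replicate block it did in the DS (-0.67, edgeR adjusted p = 0.0245).

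The only alpha member called, Pcdha8 in the DS, had 0 reads in all 6 heavy libraries and a mean of 0.430 CPM in total, from reads in 3 of 6 libraries. Against a floor of 3 reads over the heavy group it was at least 16.8-fold lower in heavy, and at least 8.55-fold without the rpS6P-/- total replicate 2. It entered the test through its 38 reads in total libraries alone, and it was no longer called with the replicate block or in 4 of the 12 fits that left out 1 library. Of the members called, 8 were called in both regions, which is 50% of each list, where 1826 genes of the whole table were lower in both, 72.8% of those lower in the Acb and 62.7% of those lower in the DS. The 8 were 7 gamma members (Pcdhga3, Pcdhga4, Pcdhga7, Pcdhga10, Pcdhgb1, Pcdhgb6 and Pcdhgc5) and the beta gene Pcdhb14. Leaving out 1 library at a time lost the Acb call of Pcdhga7 in 7 of 12 fits and that of Pcdhgb1 in 4. In the DS it lost the call of Pcdhga3 in 3 of 12 fits, Pcdhb14 in 2 and Pcdhgb1 in 1, and the other calls of the 8 passed in all 12. These shared names were picked out after their values were seen.

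Within the gamma cluster, the difference between fractions ran with the level of the gene (Spearman's rho 0.39 in the Acb and 0.60 in the DS over 22 genes) and hardly with position (-0.08 and 0.02) or with own exonic bases (0.15 and 0.23). These are correlations across genes that share libraries. With the trend on transcript length removed, 13 members were called in each region, beside 4876 of 16687 genes in the Acb and 5115 of 16544 in the DS. Heavy libraries of the Acb were deeper than total ones (14948045 to 34703044 against 9280589 to 18177175 assigned reads), and markers of medium spiny neurons summed to 5967 to 7739 CPM in heavy and 4669 to 5360 CPM in total. The part of depth and of cell types in these differences was not tested.

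The second question was whether the 2 regions differed. In heavy fractions the members called were higher in the Acb, led by Pcdhgc3. The summed gamma level was 78.2 to 126 CPM in Acb heavy and 35.5 to 100.3 CPM in DS heavy. In whole lysates Pcdhgc3 passed as well, a call lost in 1 of the 12 fits that left out 1 library. The alpha genes there had values below 0 without passing the test. In tissue samples such as these, fewer cells of a type and less RNA per cell cannot be told apart.

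In heavy fractions, 7 of 57 members were higher in the Acb and 0 lower, where 10.6% of all genes were called higher and 12% lower. They were Pcdhb1, Pcdhb6, Pcdhb9, Pcdhb21, Pcdhga8, Pcdhgc3 and Pcdhgc4, a share close to that of all genes. The median log2 difference, Acb minus DS, was 0.51 for 13 alpha, 0.56 for 22 beta and 1.08 for 22 gamma members, beside 0.02 over all genes tested, and 54 of 57 members had values above 0. DESeq2 called 8 members, beside 4215 of all 16880 genes in either direction, and leaving out 1 library at a time gave 3 to 11. Without the wild-type DS heavy replicate 1, 6 members were called, beside 3362 of 16830 genes. The medians were then 0.32, 0.56 and 0.83.

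Pcdhgc3 had 27.03 to 41.0 CPM in the 6 Acb heavy libraries and 7.46 to 23.0 CPM in the 6 DS heavy libraries, with no overlap and a log2 difference of 1.39 ± 0.198 (SE; edgeR adjusted p = 9.21e-06). Pcdhgc4 had 2.51 to 7.37 CPM against 0 to 2.32 CPM, again with no overlap (2.32 ± 0.604, edgeR adjusted p = 0.00596). Pcdhga8 had 1.60 to 7.27 CPM against 0.0899 to 5.33 CPM, with overlapping groups (1.68 ± 0.569, edgeR adjusted p = 0.0335). The call of Pcdhga8 was lost in 6 of the 12 fits that left out 1 library, and that of Pcdhgc4 over wild-type libraries alone (1.79, edgeR adjusted p = 0.234).

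Pcdhgc5 and Pcdhac2 did not pass, with differences of 0.34 ± 0.219 and 0.51 ± 0.194 (edgeR adjusted p = 0.288 and 0.0611). Pcdhb9 was higher in Acb heavy by 0.87 ± 0.261 (edgeR adjusted p = 0.0162), at 8.07 to 11.9 CPM against 2.01 to 8.42 CPM, ranges that met at their ends. Pcdhb1 had 0 reads in all 6 DS heavy libraries and reads in 4 of 6 Acb heavy libraries, at most 20 in 1 library. Against the floor of 3 reads over the DS group it was at least 10.5-fold higher in Acb heavy, and at least 6.67-fold without the wild-type Acb heavy replicate 2. Pcdhb1 entered the test through its Acb reads alone (41 in all), and its call was lost in 10 of the 12 fits that left out 1 library, as was that of Pcdhb21.

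In whole lysates, 5 of 57 members were higher in the Acb and 0 lower, where 9.87% of all genes were called higher and 9.74% lower. They were the beta genes Pcdhb7, Pcdhb15 and Pcdhb18 and the gamma genes Pcdhgb6 and Pcdhgc3. DESeq2 called 6 members, beside 3407 of all 16364 genes in either direction. The median difference was -0.46 for alpha, 0.63 for beta and 0.40 for gamma, beside 0.01 over all genes. All 13 alpha members had values below 0, none of which passed (1 at an unadjusted p under 0.05).

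Pcdhb18 had 6.93 to 11.4 CPM in Acb total (median 8.79) and 1.86 to 6.34 CPM in DS total (median 4.86), without overlap (log2 difference 0.99 ± 0.307, edgeR adjusted p = 0.0140). Pcdhgb6 had 3.01 to 11.8 CPM against 1.94 to 6.95 CPM, with overlap (1.02 ± 0.340, edgeR adjusted p = 0.0244), a call lost in 7 of the 12 fits that left out 1 library. Pcdhgc3 had 12.996 to 38.4 CPM against 13.5 to 30.2 CPM, with a median of 27.8 against 14.1 CPM (0.73 ± 0.196, edgeR adjusted p = 0.00371), and it was the only member called higher in the Acb in both fractions. Without the wild-type Acb total replicate 1 its call in whole lysates was lost (0.54, edgeR adjusted p = 0.0545), while that in heavy fractions passed in all 12 fits that left out 1 library. Pcdhgc5 differed by -0.13 ± 0.135 (edgeR adjusted p = 0.583) in whole lysates.

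Other cell types moved with region. All 7 listed markers of cortical excitatory neurons were in the table, and they summed to 203 to 340 CPM in Acb heavy and 882 to 1158 CPM in DS heavy, and to 173 to 297 CPM and 839 to 1077 CPM in total. Most of the DS sums was 1 gene, Slc17a7, with means of 656 CPM in heavy and 522 CPM in total. Lamp5 alone of the 7 had the higher mean in the Acb, at 145 against 132 CPM in heavy and 104 against 102 CPM in total. The 7 astrocyte markers summed to 1762 to 2860 CPM in Acb heavy and 1040 to 1925 CPM in DS heavy, and to 2185 to 3040 CPM and 1702 to 2143 CPM in total. The 5 microglia markers were all called higher in the Acb in both fractions. The 6 choroid plexus markers summed to 48.5 to 75.0 CPM in Acb heavy (mean 57.6) and 12.9 to 19.9 CPM in DS heavy (mean 17.0). Most of that was 1 gene, Clic6, with means of 45.1 and 13.3 CPM. Aqp1 (0.240 against 0.359 CPM) and Kcnj13 (0.0424 against 0.157 CPM) had the higher mean in DS heavy. Of the oligodendrocyte markers, 5 of 7 were called higher in Acb total (2 higher and 1 lower in heavy). No endothelial marker was called, and no marker of these lists was at 0 in all 24 libraries. Their part in the differences of protocadherins was not tested.

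**Figure D5:**
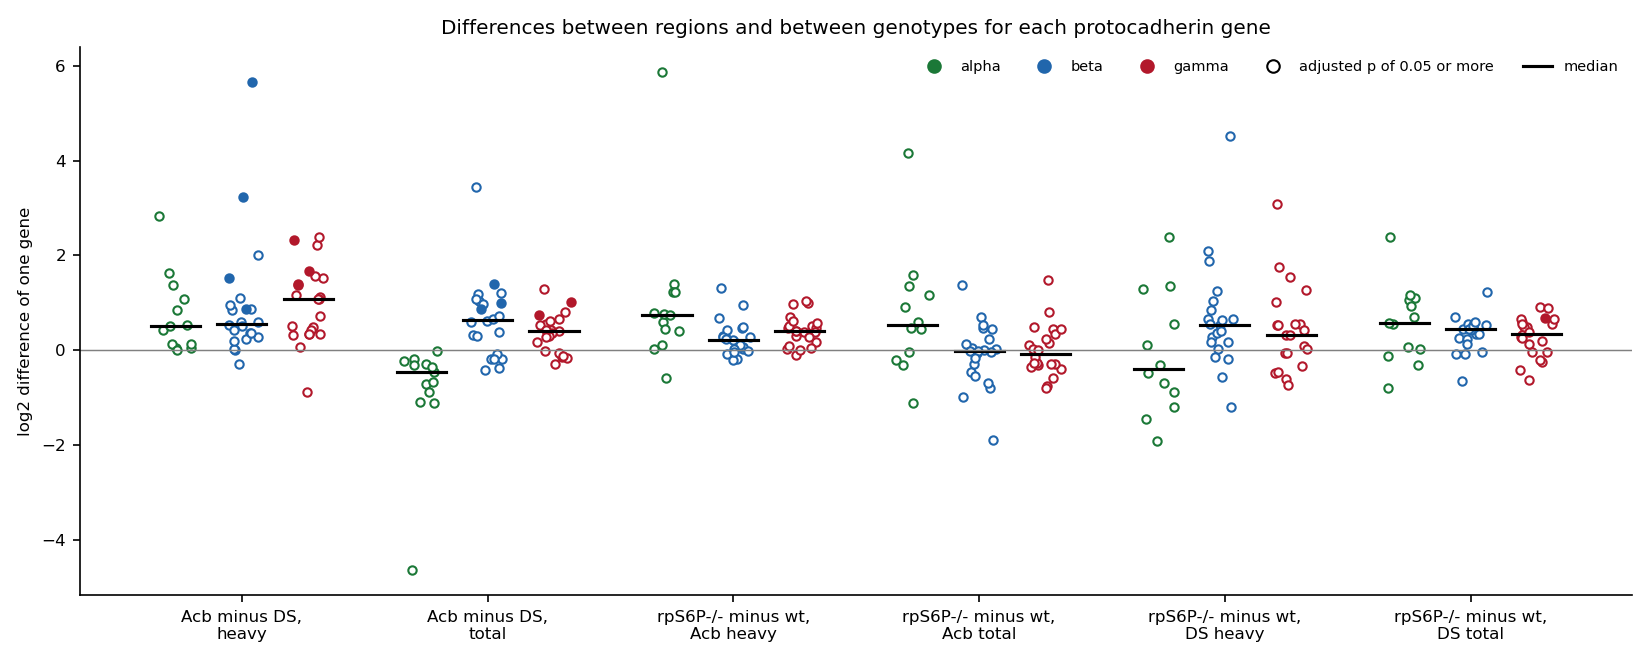
Log2 difference of each tested member by cluster for 6 comparisons, 2 of region (Acb minus DS) and 4 of genotype (rpS6P-/- minus wild type), with the median as a line. Filled points passed an adjusted p of 0.05: 7 members for region in heavy, 5 for region in total and 1, Pcdhgc5, for genotype in DS total.

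The third question was whether the rpS6 mutations went with a change in these mRNAs. In 3 of the 4 comparisons of genotype no clustered protocadherin was called, and in the fourth 1 was.

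In Acb heavy fractions, 0 of 57 members passed, as did 0% of all genes, and 2 members had an unadjusted p under 0.05, where 21.7% of all genes did. Those 2 were Pcdha8 and Pcdhga4 (edgeR adjusted p = 0.205 and 0.201), named because they are so few. The reads of Pcdha8 there were 29 in rpS6P-/- replicate 2 and 0 in the other 5 libraries, so its value rests on 1 library. DESeq2 called 0 members and 1090 of all 16227 genes, and edgeR called 813 genes, but again 0 members, in 1 fit of all 24 libraries. The difference, rpS6P-/- minus wild type, was above 0 for 49 of 57 members, with medians of 0.75 for alpha, 0.22 for beta and 0.40 for gamma, beside -0.01 over all genes. The summed gamma level was 78.2 to 120 CPM in wild-type mice and 115 to 126 CPM in rpS6P-/- mice, and wild-type replicates 1 and 3 lay below all 3 rpS6P-/- replicates.

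In Acb whole lysates, 0 of 56 members passed (0.00650% of all genes did), and 0 had an unadjusted p under 0.05, where 2.96% of all genes did. In DS heavy fractions, 0 of 54 passed (0.0440% of all genes), and 0 had an unadjusted p under 0.05, beside 6.42% of all genes. DESeq2 called 0 members in both. The median of all members was -0.0013 in Acb whole lysates and 0.34 in DS heavy fractions. Without the wild-type DS heavy replicate 1 the last value was 0.19, and the medians went from -0.40 to -0.96 for alpha, from 0.53 to 0.31 for beta and from 0.32 to 0.06 for gamma, still with 0 members called.

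In DS whole lysates, Pcdhgc5 was higher in rpS6P-/- mice, the 1 of 56 members that passed, where 0.0320% of all genes were called higher and 0.0897% lower. Its level was 39.3, 48.8 and 53.3 CPM in the wild-type pools and 61.1, 83.7 and 84.8 CPM in the rpS6P-/- pools. The groups did not overlap, and the log2 difference was 0.68 ± 0.151 (SE, n = 3 against 3; edgeR adjusted p = 0.0437; DESeq2 adjusted p = 0.0128). The call was lost with edgeR's own filter on low counts (adjusted p = 0.113), with the length trend removed (adjusted p = 0.103), in 1 fit of all 24 libraries (adjusted p = 0.806), and without any 1 of the 6 libraries other than rpS6P-/- replicate 1. In the other 3 comparisons Pcdhgc5 differed by 0.28 (Acb heavy), -0.01 (Acb total) and 0.31 (DS heavy). Pcdhga11 (0.91) was the only other member in this comparison with an unadjusted p under 0.05, and 43 of 56 members had values above 0, with a median of 0.44. Among the sums of cell type markers in DS total, only that of astrocytes did not overlap between genotypes. It was 1702 to 1822 CPM in wild-type and 1831 to 2143 CPM in rpS6P-/- mice, and its part in these differences was not tested.

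The fourth question was whether these effects depended on each other. For the change in heavy relative to total between genotypes, 0 of 57 members passed in the Acb and 0 of 56 in the DS, as did 0% of all genes in each. At an unadjusted p under 0.05 there was 1 member in the Acb, Pcdhga4, and 1 in the DS, Pcdhgb5, beside 11.9% and 4.90% of all genes, and DESeq2 called 0 in both. The median of the members was 0.28 in the Acb and 0.07 in the DS, and -0.15 in the DS without the wild-type heavy replicate 1.

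The difference between fractions itself was compared between the regions. None of the 57 members passed, where 2.15% of all genes did, and the lowest member p was 0.112 (edgeR, adjusted) for Pcdhgc4. At an unadjusted p under 0.05 there were 3 members, beside 15.5% of all genes, and DESeq2 called 0. All 13 alpha members had values above 0, that is, a lower heavy share in the DS, with a median of 1.24, beside 0.38 for beta and 0.51 for gamma. Without the wild-type DS heavy replicate 1 these medians were 0.99, 0.32 and 0.40, with 0 members called. With the lysate as a replicate block, Pcdhga8 (2.35), Pcdhgc4 (2.53) and Pcdhgc5 (0.64, edgeR adjusted p = 0.0418) passed. For the dependence of the genotype difference on region in heavy fractions, 0 of 57 members passed (0.00592% of all genes did), 0 had an unadjusted p under 0.05 (13.8% of all genes did), and DESeq2 called 0.

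The clusters varied together across libraries. The log2 sums of beta and gamma had a Pearson's r of 0.92 over the 24 libraries, alpha and gamma 0.72, and alpha and beta 0.60. These values, which include the differences between fractions and regions, are given as a description. Among 11950 genes with at least 50 reads on average, the patterns most like the alpha sum included those of Abl1 (r = 0.86), Cit, Golga3 and Ppp1r12b. Those most like the beta sum included Cntn1 (0.96), which encodes the adhesion protein contactin 1, Atrn, Glg1 and Dock10. Most like the gamma sum were Lonrf2 (0.94), Spock2, Gria2, which encodes an AMPA receptor subunit, Atrn and Soat1.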

How the data were processed

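RNA-seq libraries were stranded, and because of bacterial sequences in them several sequencing runs were made per library. Per the labels and the study's methods, reads were aligned with TopHat2 2.0.13 and Bowtie2 2.2.3 to the mouse genome (mm10, GRCm38) and counted per gene with HTSeq 0.6.1p1 in union mode. The authors deposited 1 table of raw counts for 24 libraries. Union mode leaves reads on exons shared by several genes uncounted, and how reads with several matches were treated is not given in the sources used here.

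Counts were analysed with edgeR 4.0.16 (R 4.3.3): TMM normalization, genes with at least 15 reads over the libraries of a fit, quasi-likelihood tests and Benjamini-Hochberg adjustment over all genes. Each fit had a mean per group, and fraction and region were tested as contrasts averaged over both genotypes. Alternatives were DESeq2 1.42.0, its size factors, edgeR's filterByExpr filter, no filter, a loess trend on transcript length (span 0.5) removed, wild-type libraries alone, a fit of all 24 libraries, a replicate block, and leaving out each library. The code was tested on simulated counts. Exons came from GENCODE and cluster positions from RefSeq. Figures used matplotlib 3.10.9 and tables pandas 2.3.3 (Python 3.11.15).

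Named members were the 3 highest and the lowest of each cluster by mean CPM, the 5 C types and, per comparison, the 2 largest called differences in each direction with at least 50 reads on average. From the other lists the 3 genes with the highest mean CPM were named, and for each cluster the 5 genes with the highest Pearson's r of log2(CPM + 1), of which some are not reported here. Other names were chosen after their values were seen. The members and lists were chosen with earlier results of these data known. Heavy and total libraries of the same number came from 1 lysate, which pairs them by design, although deviations from group means of 12 such pairs had an r of only -0.05 to 0.08. No pair of replicates was as alike as counting noise alone would give (chi-square per gene 14.6 to 75.4).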

Additional observations from a re-analysis of the deposited data

How the results depend on the processing

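Counts of clustered protocadherins called stayed within 1.5 times in 72 combinations of comparison and setting and moved further in 8, and no direction of a called value turned. Most of the 72 were combinations in which a count of 0 stayed at 0, so that number says little about the comparisons that called members. Over wild-type libraries alone, 4 members were called between fractions in the DS, 2 between regions in heavy and 2 in total. Between genotypes in DS total, the count was 0 with edgeR's own filter, 0 with the length trend removed and 0 in 1 fit of all 24 libraries. For the difference between fractions compared between regions it was 2 with no filter. There, DESeq2's size factors turned the split over all genes from 104 of 374 called higher to 65 of 457. The cause of these shifts was not tested.

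With a replicate block, 16 members were called between fractions in the Acb (15 lower, 1 higher) and 19 in the DS. Of all genes it called 5386 of 16687 in the Acb and 6163 of 16544 in the DS. For the difference between fractions compared between regions, 3 were called with the replicate block against 0 without it. Region and genotype groups share only replicate numbers. There the replicate block gave 9 members for region in heavy, 6 in total, 1 for genotype in DS total and 0 in the other genotype comparisons. For region, it called 3938 of 16880 genes in heavy and 3193 of 16364 in total.

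Leaving out 1 library at a time gave 13 to 18 members between fractions in the Acb and 12 to 25 in the DS (25 without wild-type heavy replicate 2). Between regions in heavy it gave 3 to 11 (3 without Acb wild-type heavy replicate 2 or rpS6P-/- heavy replicate 1, 4 without Acb wild-type heavy replicate 3 or rpS6P-/- heavy replicate 2, 11 without DS wild-type heavy replicate 2). Between regions in total it gave 2 to 5 (2 without Acb wild-type replicate 1 or DS wild-type replicate 3, 3 without Acb wild-type replicate 2 or DS rpS6P-/- replicate 1 or 2). For genotype in DS total it gave 0 to 1. For the difference between fractions compared between regions it gave 0 to 2 (2 without DS wild-type heavy replicate 2 or rpS6P-/- heavy replicate 1, 1 without rpS6P-/- heavy replicate 2). The other comparisons gave 0 to 0. Pcdhga8 lost its call between regions in heavy in 6 of 12 such fits, and Pcdhgb6 in total in 7 of 12. Over wild-type libraries alone, Pcdhgc4 in heavy (1.79, edgeR adjusted p = 0.234) and Pcdhgb6 in total (0.69, edgeR adjusted p = 0.437) lost theirs.

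The spread between replicates was widest for the alpha members, 2 of which had under 10 reads per library on average, and variable exons stand in for whole alpha and gamma mRNAs.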

Other observations

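Non-clustered protocadherins, which lie outside the alpha, beta and gamma clusters and have no shared constant exons, were lower in heavy fractions in part. Of the 11 tested, 3 were lower in Acb heavy and 6 in DS heavy (edgeR's quasi-likelihood test), where 15% and 17.6% of all genes were. Their median log2 differences were -0.26 and -0.48, while the median of the clustered genes was -0.59 and -1.14. Pcdh10, which had the most reads of them, was higher in the Acb than in the DS by 1.16 in heavy and 0.74 in total, at 184 to 296 CPM in Acb heavy against 77.3 to 147 CPM in DS heavy. Pcdh17 was higher in the Acb by 0.65 and 0.36, and Pcdh9 by 0.40 in heavy alone (0.16 in total did not pass). In all, 8 of the 11 were higher in Acb heavy, and in total 6 were higher and 1 lower, beside 10.6% of all genes higher in heavy and 9.87% higher and 9.74% lower in total. None passed in a comparison of genotype with either edgeR or DESeq2.

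Of 16 genes that control the clusters (the insulator protein, cohesin and silencing factors), 8 were lower in Acb heavy and 10 in DS heavy. None was called higher in either region. Over all genes, 15% in the Acb and 17.6% in the DS were called lower, and 16.6% and 19.6% higher. Pds5b, a regulator of cohesin, was lower in heavy by log2 differences of -0.45 in the Acb and -0.80 in the DS. Rad21, a cohesin subunit, and Ctcf, which binds the promoters of the clusters, passed in neither region (0.22 and -0.16 for Rad21, 0.12 and -0.05 for Ctcf). Between regions, 1 of the 16 was higher and 1 lower in the Acb in heavy fractions, where 10.6% of all genes were higher and 12% lower. In whole lysates 0 passed, beside 9.87% of all genes higher and 9.74% lower.

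Of 16 partners of protocadherins inside the cell or at the membrane, 5 were higher and 3 lower in Acb heavy, and 3 higher and 6 lower in DS heavy, beside the same shares over all genes. Ptk2b, a kinase bound by the constant domains, was lower in heavy by -0.57 in the Acb and -0.84 in the DS. Cyfip2 and Nckap1, subunits of the WAVE complex that controls actin, were lower in DS heavy (-0.52 and -0.35) and did not pass in the Acb (0.01 and -0.10). In whole lysates, 2 of the 16 were higher in the Acb and 7 lower, where 9.87% of all genes were called higher and 9.74% lower. None of the regulators or partners passed edgeR's test in a comparison of genotype, while in Acb heavy fractions DESeq2 called 2 regulators and 3 partners (1090 of all 16227 genes).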
